A study of Mus musculus with 21 samples.

Results

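The 63 genes described here carry the mouse symbols from Zfp900 to Zfp999 and are all the rows of the deposited count table, out of 33861, whose symbol is Zfp9 followed by 2 more digits. They were taken by name, and the set was drawn up because Zfp985 was much lower at embryonic day 6.0 than before it. Values of the E6.0 epiblasts against the earlier ones, and every value of Zfp985, are therefore given as a description without a p-value. The main counts of calls are given with and without Zfp985. Of the 63 genes, 62 are annotated as protein coding, and Zfp939 is annotated as a transcribed unprocessed pseudogene. Another 306 genes of the table have other numbered Zfp symbols. Zfp957 had no count in any of the 21 samples, which allows up to 3 counts per sample.

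RNA was sequenced from 12 cultured mouse samples of 1000 cells each and from 9 single epiblasts, the pluripotent tissue of the early embryo. FS cells, labelled formative stem cells, were kept in A3XR medium and came from 2 lines. Line 1 was sampled at passages 10, 11 and 18, and line 2 at 12, 13 and 16. AF and AFX samples are labelled epiblast stem cells, have E14 (a widely used embryonic stem cell line of the mouse) in their titles, were kept in media of the same names and were sampled at passages 14, 15 and 16. The epiblasts were 3 each from embryonic days 5.0 (embryos 1, 2 and 4), 5.5 and 6.0 (embryos 1, 2 and 3), written E5.0, E5.5 and E6.0. Another label field gives 6.5 for the oldest stage. Strain, sex and genotype are not given in the labels used here. Replicates in culture are different passages of the same cells and p-values there measure the spread between passages, which may be technical. FS differs from AF and AFX in line and medium together.

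Total counts ran from 5827093 to 15916800 per sample, and levels are in CPM, each count divided by its sample's total and scaled alike in all samples. Pooled levels of 7 epiblast markers were between 1228 and 6067 CPM over the 21 samples. The sum of 11 visceral endoderm markers, genes of the tissue that wraps the epiblast, was 282.5 to 803 CPM at E5.0, 42.67 to 79.46 at E5.5 and 23.3 to 33.13 at E6.0. It was 7.972 to 14.06 CPM in FS, 65.65 to 99.52 in AF and 13.82 to 26.67 in AFX. Among those markers Afp was at 0 in all 12 cultured samples, and Ttr, Apob and Hnf4a were also at 0 in FS. The sum of 7 feeder fibroblast markers was 226.6 to 269.2 CPM in AF, against 16.54 to 49.32 in FS, 30.25 to 55.57 in AFX and 9.048 to 22.06 in the epiblasts. In bulk samples, fewer cells that express a gene and less RNA per cell cannot be told apart.

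Most mouse Zfp genes with such high numbers belong to the family of KRAB zinc finger genes. Their proteins carry a row of zinc fingers that bind DNA and a KRAB domain that recruits the co-repressor TRIM28, which in turn brings the histone methyltransferase SETDB1 and heterochromatin proteins. Many of them silence transposable elements in the early embryo and in pluripotent cells. The family grew by repeated local duplication, so its genes lie in clusters and many share long stretches of near-identical sequence.

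The 63 genes were grouped by position in GENCODE M21 (GRCm38, the build called mm10), joining neighbours less than 2 Mb apart. The largest group, on chromosome 4, holds 16 genes within 2.338 Mb (chr4:145510759-147848366), from Zfp990 at one end through Zfp985 to Zfp933 at the other. A group of 10 lies at chr17:21567008-22867134, one of 9 at chr2:175372436-178078476, one of 4 at chr7:42579783-43192109 and one of 3 at chr8:69209038-69749970. The other 21 genes lie outside groups of 3 or more.

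Levels were first summed over each position group (heat map of all 63 genes). The 16 genes of the chromosome 4 cluster summed to 879 to 1254 CPM at E5.0 and 654.2 to 928.7 CPM at E5.5. At E6.0 the sum was 140.6 to 266.8 CPM, and in the cultured samples it was 40.89 to 124.5 CPM in FS, 132.7 to 146.1 in AF and 95.47 to 103.2 in AFX. No E5.0 or E5.5 epiblast overlapped any other sample in this sum. The remaining 47 genes together gave 309.9 to 657.3 CPM over all 21 samples, with 471.4 to 656.3 in FS and 542.5 to 657.3 at E5.0. Among them, the 4 genes on chromosome 7 summed to 104 to 158.3 CPM at E5.0 and 63.69 to 73.61 at E5.5, above every cultured sample (32.24 to 62.7) and every E6.0 epiblast (20.4 to 26.12). The 9 genes on chromosome 2 summed to 102.2 to 158.3 CPM at E5.0, above all 18 other samples (37.52 to 87.91). Genes of 1 group could differ from each other, as Zfp933 did on chromosome 4. Per kilobase of annotated exon and averaged over all samples, the highest levels were those of Zfp980 (19.5 CPM per kb), Zfp990 (15.8), Zfp982 (15.5), Zfp946 (12.97) and Zfp970 (10.7).

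**Figure D1:**
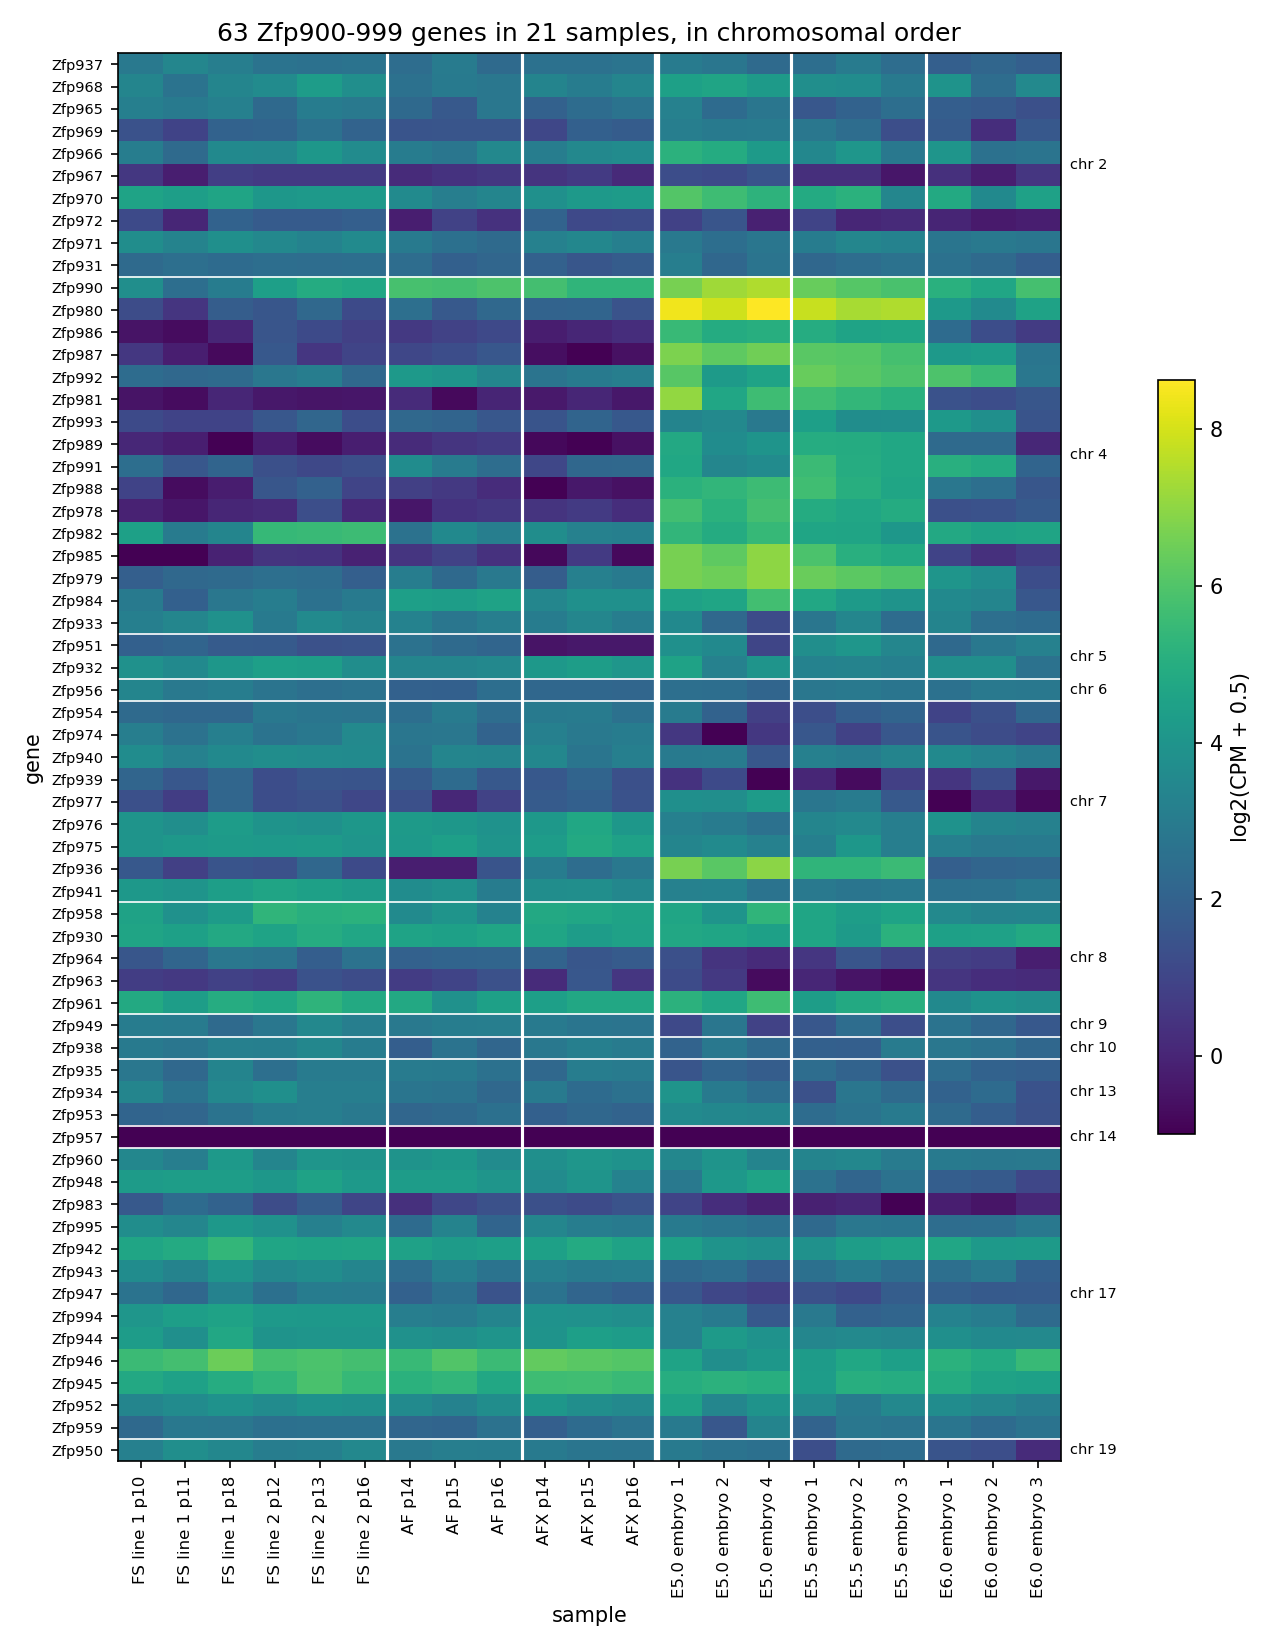
Level of each of the 63 genes (rows, in chromosomal order) in each of the 21 samples (columns), as log2(CPM + 0.5), with white lines between chromosomes and groups. The chromosome 4 block is bright in the 6 epiblasts of E5.0 and E5.5, and Zfp957 has no count in any sample.

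Zfp985 spans chr4:147553277-147585198 on the plus strand and is the gene that drew attention to the set. It stood at 99.95, 76.02 and 127.7 CPM in the 3 E5.0 epiblasts and at 58.86, 33.23 and 27.94 CPM at E5.5. At E6.0 it was at 1.402, 0.7688 and 1.2 CPM. In FS it ranged from 0 to 0.8788 CPM (median 0.441, n = 6), in AF from 0.7783 to 1.369 and in AFX from 0.07161 to 1.039. The means were 101.2 ± 25.8 CPM at E5.0, 40.0 ± 16.5 at E5.5, 1.12 ± 0.32 at E6.0 (SD, n = 3 each), 0.429 ± 0.379 in FS (n = 6), 1.02 ± 0.31 in AF and 0.399 ± 0.554 in AFX (n = 3 each). Every E5.0 epiblast was above every E5.5 epiblast, and both stages were above the other 15 samples, while E6.0 overlapped FS, AF and AFX. The fitted log2 difference was -6.53 (SE 0.37) for E6.0 against E5.0 and -5.16 (SE 0.37) for E6.0 against E5.5.

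Other genes of the cluster share sequence with Zfp985, which bears on how reads are assigned. A 50-base stretch of its coding sequence in GENCODE M21, shown first below, occurs in transcripts of 16 genes, among them 10 of the 63: Zfp982 and Zfp985 to Zfp993. The second stretch is found in no other gene.
Zfp985, shared: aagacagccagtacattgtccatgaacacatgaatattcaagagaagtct
Zfp985, its own: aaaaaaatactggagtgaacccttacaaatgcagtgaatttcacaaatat
Of all 50-base words in the transcripts of Zfp985, 84.1% occur in no other gene. The share is 98.2% for Zfp933, 88.1% for Zfp982, 72.9% for Zfp979 and 70.9% for Zfp990. It is 32.1% for Zfp989, 31.9% for Zfp988, 28.7% for Zfp980, 22.6% for Zfp978, 17.8% for Zfp991, 13.6% for Zfp986, 13.2% for Zfp993 and 11% for Zfp987, and the levels of these 8 genes are uncertain. Zfp935, Zfp967 and Zfp969 have no word of their own, and Zfp965, Zfp966 and Zfp968 on chromosome 2 have 3.66%, 10.04% and 4.53%. How reads that fit several genes were counted, and whether strand was used, are not given in the sources used here.

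The promoters of the cluster resemble each other as well, and they are shown because 11 of the 16 genes of the cluster had every E5.0 and E5.5 epiblast above every cultured sample, a pattern of 4.71% of all genes fitted. It held for 6 of the 8 genes with the sequence described next and for 5 of the other 8 of the cluster, of which only Zfp933 has a promoter used here. Zfp981 and Zfp985 of the 6, and Zfp989 of the 5, had enough counts to be fitted only through the epiblasts, so they had to differ. Over genes with enough counts in cultured samples and in epiblasts it held for 8 of 13 on chromosome 4, against 4.51% of all such genes. Promoters of 300 bases (250 before to 50 after the start, RefSeq, GRCm38.p6) were used for 52 of the 63 genes and for 9 of the 16 on chromosome 4. The stretch listed for Zfp993 was left out, because it lies within the GENCODE span of Zfp981 and outside that of Zfp993. Those of Zfp979, Zfp980, Zfp981, Zfp982, Zfp984, Zfp987 and Zfp988 aligned to that of Zfp985 with 83.8% to 94.0% identity over at least 200 bases, and that of Zfp933 did not. The one listed for Zfp981 lies within the span of Zfp981. Zfp982 has 3 promoters in the table, of which 1 aligned and is shown, and the other 2 lack the run. The capitals mark the longest run common to all 8, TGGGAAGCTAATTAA.
Zfp985 promoter, chr4:147553027-147553326, plus strand: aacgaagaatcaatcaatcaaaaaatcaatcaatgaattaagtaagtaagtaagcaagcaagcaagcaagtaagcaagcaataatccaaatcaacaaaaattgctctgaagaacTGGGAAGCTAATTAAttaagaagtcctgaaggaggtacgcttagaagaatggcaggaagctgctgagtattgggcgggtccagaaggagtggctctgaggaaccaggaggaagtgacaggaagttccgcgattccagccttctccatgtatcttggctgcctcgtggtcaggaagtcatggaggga
Zfp980 promoter, chr4:145670447-145670746, plus strand: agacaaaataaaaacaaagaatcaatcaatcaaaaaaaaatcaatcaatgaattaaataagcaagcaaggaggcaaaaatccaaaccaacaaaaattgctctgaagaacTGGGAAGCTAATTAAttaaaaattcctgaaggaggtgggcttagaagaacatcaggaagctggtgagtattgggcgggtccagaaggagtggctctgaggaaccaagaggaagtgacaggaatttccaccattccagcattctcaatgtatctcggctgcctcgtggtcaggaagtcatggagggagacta
Zfp982 promoter, chr4:147492167-147492466, plus strand: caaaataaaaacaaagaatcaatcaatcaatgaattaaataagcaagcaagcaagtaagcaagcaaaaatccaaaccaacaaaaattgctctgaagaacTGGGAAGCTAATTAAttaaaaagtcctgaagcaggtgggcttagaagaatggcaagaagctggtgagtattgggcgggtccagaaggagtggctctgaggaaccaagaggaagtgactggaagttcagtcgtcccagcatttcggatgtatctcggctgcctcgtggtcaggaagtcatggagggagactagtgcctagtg
Zfp984 promoter, chr4:147809739-147810038, minus strand: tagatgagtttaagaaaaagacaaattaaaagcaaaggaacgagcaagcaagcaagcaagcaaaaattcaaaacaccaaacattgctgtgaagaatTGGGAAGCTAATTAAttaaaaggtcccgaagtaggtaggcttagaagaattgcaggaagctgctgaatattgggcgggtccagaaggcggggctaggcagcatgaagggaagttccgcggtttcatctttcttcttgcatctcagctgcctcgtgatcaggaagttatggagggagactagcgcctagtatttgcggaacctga
Zfp933 promoter, chr4:147848369-147848668, minus strand, without the run: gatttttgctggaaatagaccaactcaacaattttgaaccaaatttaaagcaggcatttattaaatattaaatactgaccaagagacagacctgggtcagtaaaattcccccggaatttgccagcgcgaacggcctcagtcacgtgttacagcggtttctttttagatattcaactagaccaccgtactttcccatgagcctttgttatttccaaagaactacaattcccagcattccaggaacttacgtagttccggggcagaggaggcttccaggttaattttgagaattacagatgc
On either strand, that run of 15 bases is in 12 of 32851 RefSeq mouse promoters (0.0365%), all of them within the span of the cluster. Beside the 8 genes just named they belong to Gm13212, Rex2, Zfp534 and Zfp600, which lie between the members but carry other names. A match describes the letters and is not evidence of a factor.

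These 4 neighbours outside the set were read as well, with 2 more inside the cluster, Gm21411 and Gm16503. Zfp600 averaged 245 ± 53.5 CPM at E5.0, 110 ± 35.6 at E5.5, 7.49 ± 1.02 at E6.0 (SD, n = 3 each) and 1.096 ± 0.348 in FS (n = 6). Rex2 averaged 205 ± 47.1, 115 ± 23.4 and 8.73 ± 1.17 CPM at the 3 stages and 1.53 ± 0.73 in FS, and Zfp534 46.0 ± 17.7, 34.7 ± 6.66, 3.60 ± 2.09 and 1.05 ± 0.61. These neighbours are not independent in sequence of the members. Zfp980 shares 58.55% of its 50-base words with Rex2, and Zfp978, Zfp981 and Zfp979 share 51.2%, 28.5% and 18.9% with Zfp600. Reads could have been counted for either gene, which was not tested. Both stages of Zfp600, Rex2, Zfp534 and Gm21411 were above all cultured samples, but not those of Gm13212 and Gm16503. Of 6 genes flanking the cluster, 3 on each side, none had all E5.0 and E5.5 epiblasts above all cultured samples, and Vps13d for example averaged 81.1 CPM in FS and 72.2 at E5.0. Tnfrsf8, on the side of Zfp990, was highest at E5.0 and lowest at E6.0, with 7.51 ± 2.40 CPM at E5.0, 2.02 ± 0.69 at E5.5 and 0.188 ± 0.165 at E6.0 (SD, n = 3 each), and averaged 0.697 to 1.02 in the cultured groups.

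Cultured cells were compared with epiblasts over all 21 samples, as the mean of the 3 cultured groups against the mean of the 3 stages. Zinc finger genes of the chromosome 4 cluster were lower in culture by up to 6.24 on the log2 scale, while those of the chromosome 17 cluster were level or higher. Counts were tested with edgeR's quasi-likelihood test, and a gene was called at a Benjamini-Hochberg adjusted p under 0.05 over all genes fitted. Of the 62 genes with enough counts, 44 were called, 19 higher and 25 lower in culture. Without Zfp985 the counts were 43 of 61 and 24 lower. Over all genes of the fit 61.8% were called, 33.9% higher and 27.9% lower. On chromosome 4, 15 of 16 were lower with a median log2 difference of -3.61, against 0.09 over all genes fitted. Without Zfp985 it was 14 of 15, with a median of -3.16. Some of these genes passed the filter on low counts only through the group in which they were higher: Zfp981, Zfp985 and Zfp989 did not pass among cultured samples alone, nor Zfp963 and Zfp983 among epiblasts alone. Such genes had to differ, so they are given as values without a p-value, and the counts were also taken over the 57 genes that passed in both kinds of sample. Of these, 39 were called, 17 higher and 22 lower, where 61.1% of all genes that passed in both were called (30.2% higher, 30.8% lower). On chromosome 4 it was 12 of 13, all lower, with a median of -2.70. In the fit of all 62 genes, 6 of 10 on chromosome 17 were called, all higher, with a median of 0.67. Zfp983, which passed only through the cultured samples, is among these 6.

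In Zfp987, cultured levels ran from 0 to 2.636 CPM, E5.0 and E5.5 epiblasts from 54.85 to 104.3 CPM and E6.0 epiblasts from 6.184 to 19.3 CPM. The 3 ranges did not overlap. The log2 difference was -6.24 (SE 0.33, edgeR quasi-likelihood adjusted p = 1.72e-11), for a gene with 11% of its 50-base words to itself. Zfp980, the gene with the highest level of the set, stood at 339.4, 243.5 and 395.2 CPM at E5.0, at 226.3, 166.6 and 176.2 at E5.5 and at 17.59, 11.61 and 23.08 at E6.0. In culture it lay between 0.9029 and 5.278 CPM, below every epiblast (log2 difference -5.24, SE 0.20, edgeR adjusted p = 8.26e-14). Zfp988 followed with -5.22 (SE 0.39, edgeR adjusted p = 9.26e-10). Zfp981 had 40 counts in all 12 cultured samples together and 3042 in the 9 epiblasts, and Zfp989 had 48 and 1428. As a description, the fitted differences were -5.96 (SE 0.30) for Zfp981, -5.49 (SE 0.36) for Zfp989 and -5.15 (SE 0.38) for Zfp985. Zfp979, with 72.9% of its words to itself, had 62.35 to 126.7 CPM at E5.0 and E5.5, 15.67, 12.3 and 1.938 at E6.0 and 3.079 to 8.698 in culture. Its log2 difference was -3.16 (SE 0.26, edgeR adjusted p = 1.01e-08).

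Zfp933, at the end of the cluster, was the 1 gene of the 16 that was not called, with a log2 difference of 0.26. Its levels were 6.386 to 13.97 CPM in culture and 1.81 to 11.33 in the epiblasts, so the groups overlapped. Without E5.0 embryo 1 it was called higher in culture and 16 of the 16 genes were called.

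Since E6.0 prompted the set, the same contrast was also fitted without the E6.0 epiblasts. The chromosome 4 count was again 15 of 16 lower, with a median of -4.75 (14 of 15 and -4.23 without Zfp985), and 27.6% of all genes fitted were lower. Over the genes that passed the filter in both kinds of sample it was 12 of 13 with a median of -2.87, where 30% of all such genes were lower. There the log2 differences were -7.04 (SE 0.31) for Zfp987 and -6.53 (SE 0.20) for Zfp980. By sample values alone, 12 of the 62 genes had every E5.0 and E5.5 epiblast above every cultured sample, against 4.71% of all genes fitted. Of these, 11 are on chromosome 4 and the other is Zfp936 on chromosome 7. Over the genes that passed in both kinds of sample it was 9 of 57, with 8 of 13 on chromosome 4, against 4.51% of all such genes. The reverse, every E5.0 and E5.5 epiblast below every cultured sample, held for 5 genes (Zfp939, Zfp946, Zfp964, Zfp974 and Zfp976), against 12.7% of all genes fitted. Visceral endoderm marker sums, given above, were also higher in E5.0 than in any cultured sample, and 8 of 10 tested markers were called lower in culture. Of the feeder fibroblast markers, 6 were tested, of which 4 were called higher in culture and 1 lower (median 2.68). Their part in the result was not tested.

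**Figure D2:**
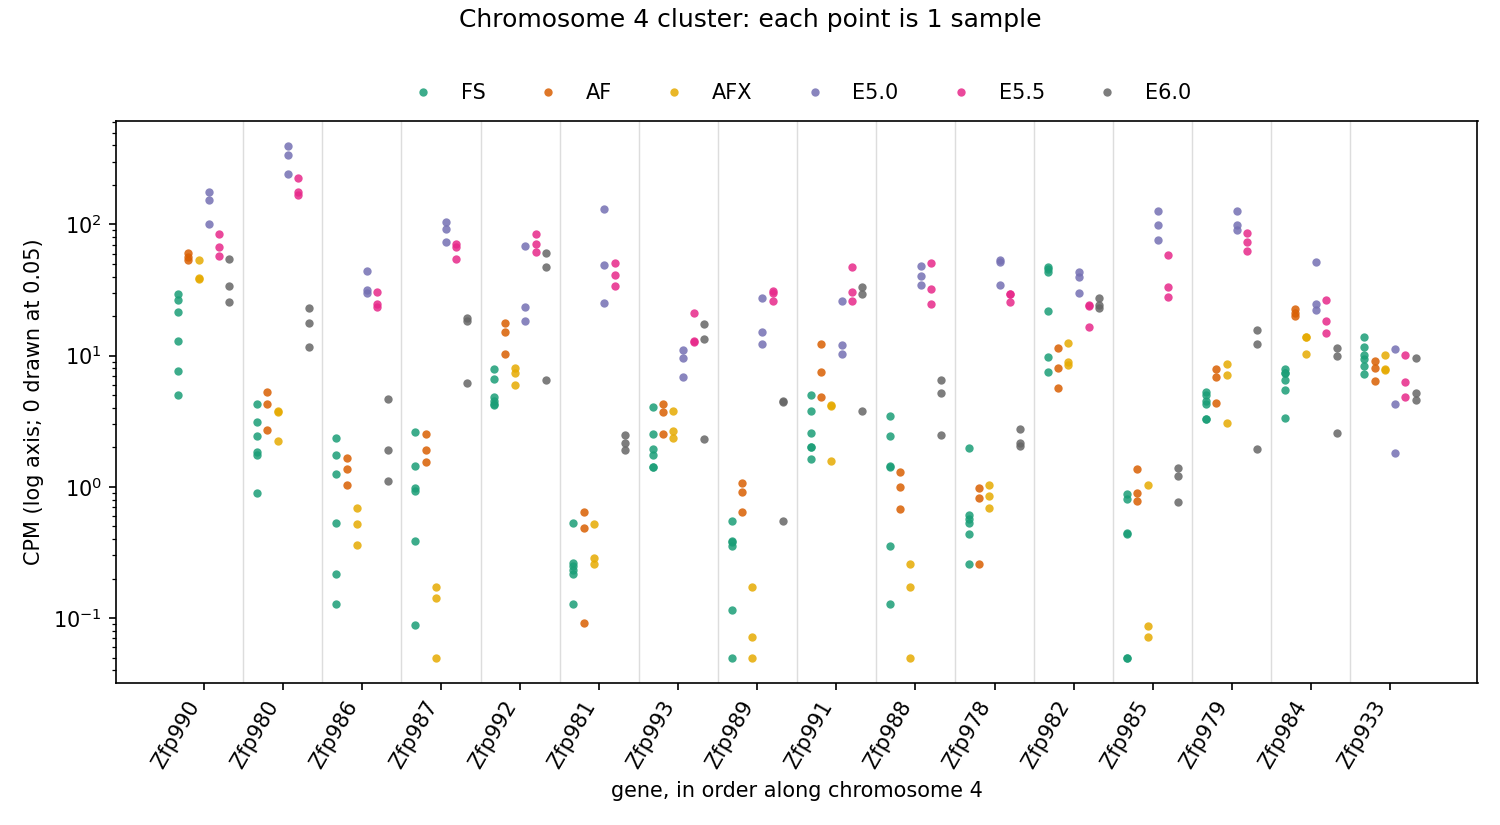
Level in CPM (log axis, 0 drawn at 0.05) of the 16 genes of the chromosome 4 cluster in order along the chromosome, 1 point per sample, coloured by group. E5.0 and E5.5 epiblasts lie above all cultured samples in 11 genes, and Zfp933 at the right has overlapping groups.

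Sequence sharing was set beside these differences gene by gene. On chromosome 4 the lower genes ranged from 11% of words of their own (Zfp987) to 88.1% (Zfp982), and Zfp933, with the most (98.2%), was not lower. Zfp982 was lower in the mean of the cultured groups, but its 3 samples of FS line 2 (43.5 to 47.75 CPM) were above every E5.5 and E6.0 epiblast. Zfp951 (98.4%) and Zfp936 (84.4%), which lie outside chromosome 4, were lower as well, with log2 differences of -2.83 (SE 0.30, edgeR adjusted p = 3.45e-08) and -3.52 (SE 0.22, edgeR adjusted p = 3.38e-11). The value of Zfp951 includes AFX, with 2 to 3 counts per sample. In that gene AF (3.891 to 5.664 CPM) overlapped E6.0 (4.333 to 8.769), and E5.0 embryo 4 (1.491) was below every FS and AF sample. Reads counted for the wrong member of a family were not tested.

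**Figure D3:**
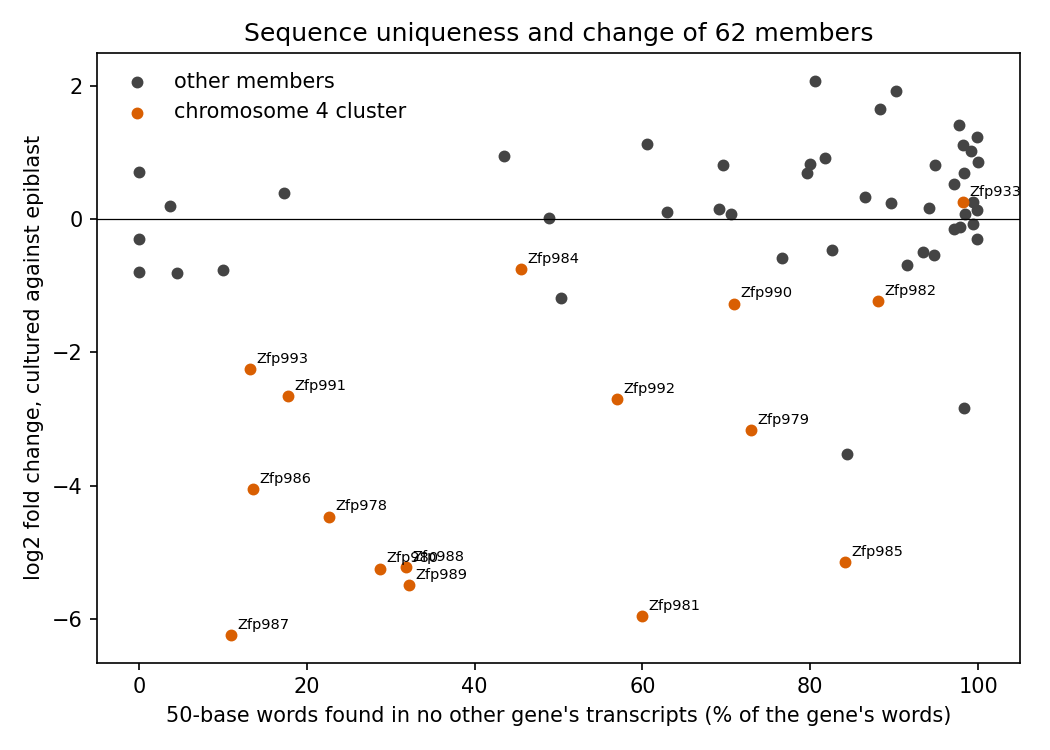
Percentage of a gene's 50-base words that occur in no other gene's transcripts (x axis) against the fitted log2 difference of cultured samples from epiblasts (y axis), 1 point for each of 62 genes. The 15 lower genes of the chromosome 4 cluster spread from Zfp987 at 11% to Zfp982 at 88.1%, and Zfp933, at 98.2%, is not lower.

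Zfp936 (chr7:43114229-43192109, plus strand) had the pattern of the chromosome 4 genes at another place. It stood at 100.9, 71.91 and 125 CPM at E5.0, at 38.99, 38.59 and 46.68 at E5.5 and at 3.313, 3.921 and 4.154 at E6.0. The 3 stages did not overlap. FS samples had 1.29 to 4.184 CPM, AF 0.3649 to 2.335 and AFX 4.933 to 7.662. Of its neighbours, Zfp977 was also highest at E5.0 (13.26, 12.87 and 18.95 CPM), while Zfp975 and Zfp976 were higher in culture by 0.81 (SE 0.13) and 0.70 (SE 0.13) on the log2 scale, with edgeR adjusted p of 1.97e-05 and 8.13e-05.

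Genes that were higher in culture had log2 differences of at most 2.08. Zfp946 on chromosome 17 had 44.92 to 87.65 CPM in the 12 cultured samples, 13.04 to 23.27 at E5.0, 19.13 to 26.29 at E5.5 and 29.29 to 43.93 at E6.0. No epiblast reached the lowest cultured sample, and the log2 difference was 1.11 (SE 0.12, edgeR adjusted p = 9.24e-08). Zfp974 on chromosome 7 had the largest difference in this direction, 2.08 (SE 0.26, edgeR adjusted p = 5.6e-07), with 3.697 to 11.18 CPM in culture and 0 to 2.555 in the epiblasts. Zfp939, the annotated pseudogene, followed with 1.65 (SE 0.44, edgeR adjusted p = 0.00253), and Zfp964 with 1.41 (SE 0.29, 0.000224). As a description, Zfp983 had 287 counts in culture and 41 in the epiblasts and a fitted difference of 1.92 (SE 0.40), and Zfp963 had 183 and 53 counts and 1.13 (SE 0.42). Zfp948 had a log2 difference of 1.23 (SE 0.19, edgeR adjusted p = 6.23e-06). Its E5.0 epiblasts (6.872, 16.99 and 23.74 CPM) overlapped the cultured samples (9.15 to 22.78), and without the E6.0 epiblasts the difference was 0.62 (SE 0.21, edgeR adjusted p = 0.0147). Zfp945, in contrast, had 22.18 to 57.99 CPM in culture and 19.44 to 36.38 in the epiblasts and was not called. On chromosome 2, 5 of 9 genes were lower and 1 was higher, but Zfp966, Zfp968 and Zfp969 among them have at most 10.04% of their words to themselves.

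**Figure D4:**
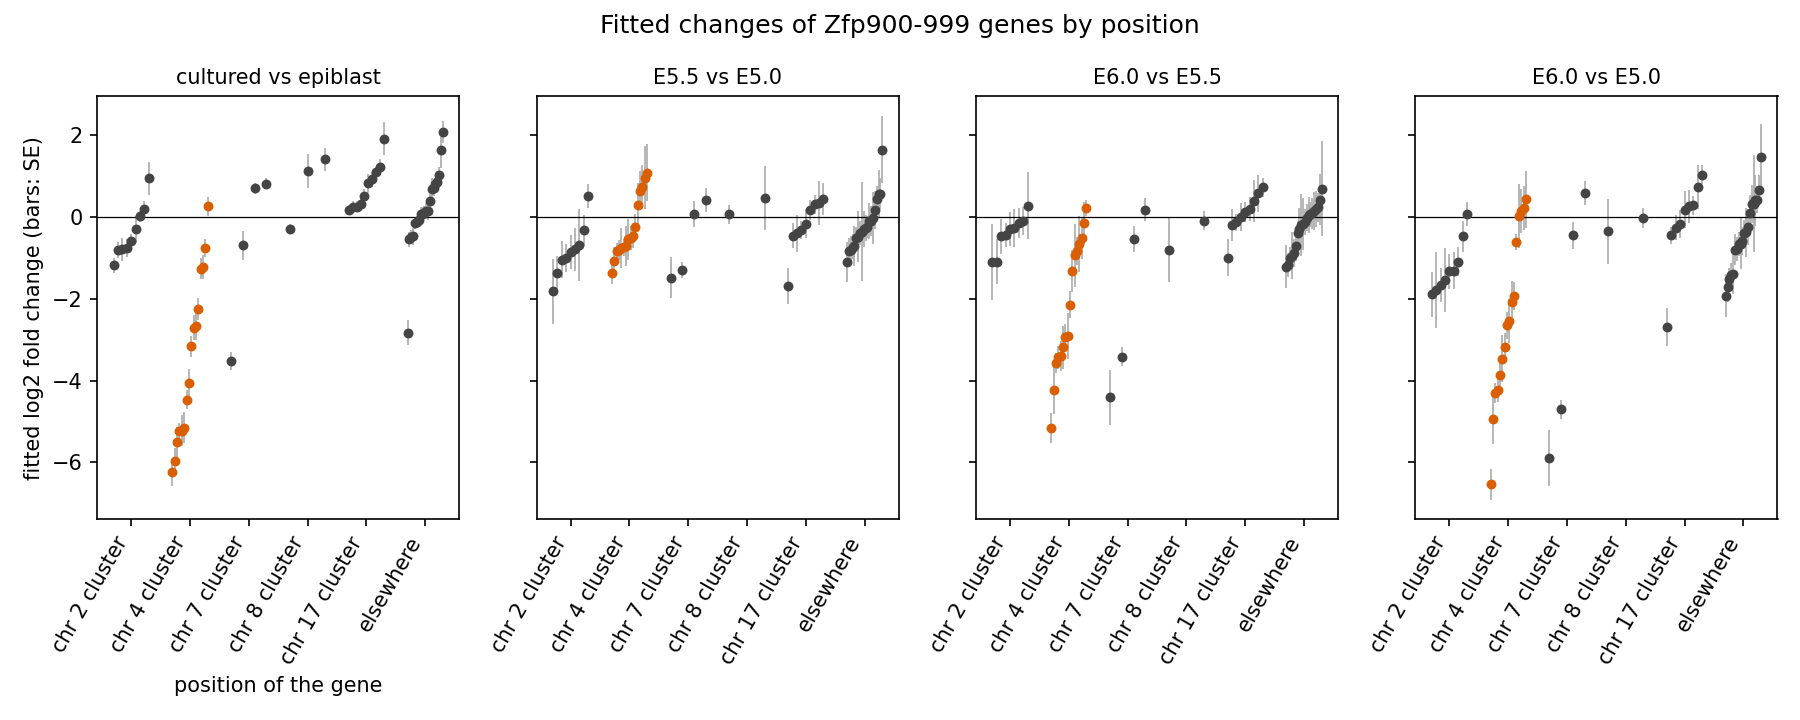
Fitted log2 fold change with its SE for every gene tested, sorted within each position group, in 4 comparisons, with the chromosome 4 cluster in orange. The cluster's median is -3.61 for cultured samples against epiblasts, -0.53 for E5.5 against E5.0, -2.53 for E6.0 against E5.5 and -2.60 for E6.0 against E5.0.

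The machinery through which KRAB proteins act was read from a list of 24 genes, of which 23 were in the table. Of these, 15 were lower in culture and 2 were higher, beside the shares over all genes fitted given above. Trim28, the co-repressor, averaged 721 CPM in FS, 631 in AF and 746 in AFX against 1221, 1180 and 1023 CPM at E5.0, E5.5 and E6.0. Its log2 difference was -0.93 (SE 0.08, edgeR adjusted p = 3.38e-09). Atf7ip, a partner of SETDB1, had a log2 difference of -1.13 (SE 0.08, edgeR adjusted p = 1.04e-10), and Setdb1 itself had -0.44 (SE 0.07, 1.97e-05). The higher genes were Cbx5, a heterochromatin protein (0.60, SE 0.06, 4.37e-08), and Zfp57, a KRAB zinc finger gene that keeps imprints (1.34, SE 0.12, 5.19e-09). Zfp809, which silences certain retroviruses, and Zfp568, which represses a placental transcript of Igf2, were not called. The median over the list was -0.56, against -3.61 for the chromosome 4 cluster and -2.70 over its 13 genes that passed the filter in both kinds of sample.

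E5.5 epiblasts were compared with E5.0 epiblasts in a fit of the 9 epiblasts, where 60 of the 63 genes had enough counts. Beside Zfp985, 4 of 59 genes were called, all lower at E5.5: Zfp948, Zfp936, Zfp982 and Zfp978. With Zfp985 the count was 5 of 60. Over all genes 6.82% were called (3.07% higher, 3.75% lower). Zfp936 had the smallest p (log2 difference -1.29, SE 0.19, edgeR adjusted p = 0.00206) and was called without each of the 9 epiblasts in turn. Zfp978 fell from 51.6, 34.67 and 53.24 CPM to 29.64, 25.55 and 29.56 (-0.74, SE 0.20, edgeR adjusted p = 0.0404). Zfp982 fell from 40.03, 30.2 and 43.55 CPM to 24.49, 23.97 and 16.44 (-0.84, SE 0.20, edgeR adjusted p = 0.0242). Zfp948 had 6.872, 16.99 and 23.74 CPM at E5.0 and 3.891 to 5.675 at E5.5 (-1.70, SE 0.44, edgeR adjusted p = 0.0338). In these 3 genes the stages did not overlap. With Zfp985 included, the count was 2 without E5.0 embryo 4, and 3, 1 and 2 without E5.5 embryos 1, 2 and 3. Zfp982 was not called without E5.0 embryo 4 or E5.5 embryos 2 or 3 (edgeR adjusted p up to 0.0869). Zfp948 kept the call only without E5.0 embryo 1 or E6.0 embryo 3 (otherwise up to 0.138), and Zfp978 only without E5.0 embryo 2 (up to 0.153). In a fit of E5.0 and E5.5 alone, these 3 genes were not called (edgeR adjusted p of 0.0635 for Zfp948, 0.0679 for Zfp982 and 0.0647 for Zfp978), and Zfp936 was. The visceral endoderm marker sum also differed between these stages, with 8 of 9 tested markers lower at E5.5. Its part in the result was not tested.

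Within the chromosome 4 cluster the genes did not all move together between E5.0 and E5.5. Zfp981 was at 132.3 CPM in E5.0 embryo 1 but at 25.4 and 48.87 CPM in embryos 2 and 4. Zfp992 was at 69.08 CPM in the same embryo 1 and at 18.36 and 23.42 in the other two, below all E5.5 epiblasts (61.5 to 84.19). Zfp991 and Zfp993 likewise had their highest values at E5.5, with 47.3 and 21.23 CPM in embryo 1. The log2 differences of the 16 genes ran from -1.37 to 1.09, with a median of -0.53.

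E6.0 epiblasts are given as a description. Of the 60 genes fitted, 24 passed the threshold for E6.0 against E5.0, 23 lower and 1 higher, where 21.8% of all genes passed (10.2% higher, 11.6% lower). For E6.0 against E5.5 13 passed, all lower, where 4.43% of all genes passed (1.89% higher, 2.54% lower). On chromosome 4 the counts were 12 and 9 of 16, with medians of -2.60 and -2.53 against -0.02 over all genes in both. Without Zfp985 the totals were 23 and 12 of 59, and on chromosome 4 they were 11 and 8 of 15. These counts describe the contrast that prompted the set, and nothing is read from them. Both comparisons share the E6.0 epiblasts. The lowest after Zfp985 in E6.0 against E5.0 were Zfp977 (-5.89, SE 0.68), Zfp981 (-4.93, SE 0.60), Zfp936 (-4.70, SE 0.23) and Zfp978 (-4.31, SE 0.24). In E6.0 against E5.5 they were Zfp977 (-4.41, SE 0.67), Zfp981 (-4.22, SE 0.59), Zfp978 (-3.57, SE 0.24) and Zfp980 (-3.42, SE 0.28). Zfp977 had 8 counts in all at E6.0. With each epiblast left out in turn its value ran from -7.82 to -5.42 against E5.0 and from -6.35 to -3.95 against E5.5. Zfp946 was the gene that was higher, by 1.03 (SE 0.23) against E5.0. In 19 of the 60 genes every E6.0 epiblast was below every earlier one, where 8.48% of all genes were, and 11 of the 19 are on chromosome 4. Zfp982 is on chromosome 4 and was not among them, with 27.65, 22.99 and 24.37 CPM at E6.0 against 16.44 to 24.49 at E5.5. Of the 23 genes of the KRAB machinery list, 7 passed the threshold as lower and 4 as higher at E6.0 than at E5.0, with a median of -0.04. Zfp57 (-2.16, SE 0.27) and Zfp809 (-1.39, SE 0.22) were among the lower ones. The higher ones were Chd3 (1.01), Pphln1 (0.65), Atf7ip (0.59) and Hdac2 (0.42), and Trim28 did not pass (-0.27, SE 0.10). All 9 visceral endoderm markers tested had a lower fitted value at E6.0 than at E5.0 (8 called, median -4.92) and than at E5.5 (1 called, log2 differences from -3.39 to -0.03). In 6 of them every E6.0 epiblast was below every earlier one. Their part in the result was not tested.

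The 3 E6.0 embryos did not have the same order of levels. Embryo 3 had 6.553 CPM of Zfp992, where embryos 1 and 2 had 60.66 and 47.05. It had 3.784 CPM of Zfp991 against 33.51 and 29.45, 2.308 of Zfp993 against 17.46 and 13.38, and 1.938 of Zfp979 against 15.67 and 12.3. Zfp990, at the other end of the cluster, was higher in embryo 3 (54.55 CPM) than in embryos 1 and 2 (33.77 and 25.68). Embryo 3 was below every E5.0 and E5.5 epiblast in the first 4 genes, whereas embryos 1 and 2 were within the E5.5 range in Zfp991 and Zfp993. Of these, Zfp991 and Zfp993 share over 80% of their words with other genes.

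Cultured groups were compared in a fit of the 12 cultured samples, where 59 of the 63 genes had enough counts. Zfp957, Zfp981, Zfp985 and Zfp989 did not pass. FS against AF gave 12 calls, 8 higher and 4 lower in FS, and 19.5% of all genes were called (8.86% higher, 10.6% lower). The 4 lower genes, Zfp984, Zfp990, Zfp991 and Zfp992, are all on chromosome 4. Zfp984 stood at 20.98, 19.98 and 22.86 CPM in AF and at 3.353 to 7.909 CPM in FS. The 2 groups did not overlap, and the log2 difference was -1.82 (SE 0.21, edgeR quasi-likelihood adjusted p = 4.48e-05). Zfp990 had 53.83 to 60.9 CPM in AF and 5.03 to 29.64 in FS (-1.81, SE 0.41, edgeR adjusted p = 0.00982), and Zfp992 10.31 to 17.63 and 4.209 to 7.903 (-1.50, SE 0.24, 0.00057). Zfp984 has 45.5% of its 50-base words to itself and shares 46.9% with Gm13212. That gene averaged 13.4 CPM in AF, 3.18 in FS and 4.77 in AFX. Zfp992 has 57.0% to itself and shares 37.5% with Zfp991, which has 17.8% to itself. Reads counted for the wrong gene were not tested.

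Among the 8 genes higher in FS, Zfp994 had 16.38 to 22.91 CPM in FS and 8.109, 7.481 and 9.729 in AF (1.06, SE 0.16, edgeR adjusted p = 0.00042). Zfp970 had 16.78 to 24.15 CPM in FS and 8.211 to 11.71 in AF (0.93, SE 0.19, edgeR adjusted p = 0.00266), and 50.3% of its 50-base words are its own. Zfp958 (1.08, SE 0.29, edgeR adjusted p = 0.0167), Zfp995 (0.97), Zfp971 (0.88), Zfp938 (0.80), Zfp943 and Zfp941 were the others. Zfp984, Zfp990, Zfp992, Zfp994 and Zfp970 were called without each of the 12 samples in turn. Without AF passage 14 the count was 6 and without AF passage 16 it was 7. Zfp958 lost its call without either (edgeR adjusted p up to 0.0954), Zfp991 without AF passage 14 (0.0932) and Zfp971 without AF passage 16 (0.0534). Zfp995 and Zfp938 lost theirs without either of these or FS line 1 passage 18, Zfp995 also without FS line 2 passage 12 (up to 0.153) and Zfp938 without FS line 2 passage 13 (up to 0.144). With FS line 1 as the only FS samples, Zfp958 (edgeR adjusted p = 0.15), Zfp991 (0.109), Zfp995 (0.0535) and Zfp938 (0.156) were not called. With FS line 2 as the only ones Zfp995 was not (0.102), and without a filter on low counts Zfp938 was not (0.0578). AF also had higher feeder and visceral endoderm marker sums than FS, as given above, with 5 of 6 tested feeder markers and 4 of 4 tested visceral endoderm markers called. Their part in the result was not tested.

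Zfp951 (chr5:104813169-104860070, minus strand, 98.4% of its words its own) set AFX apart. Its 3 AFX samples had 3, 2 and 3 counts, or 0.2148, 0.2596 and 0.259 CPM. AF had 5.664, 4.47 and 3.891 CPM and FS 2.092 to 3.74, with no overlap. AF was 19.1 times AFX (95% exact interval 9.4 to 45.1, counting error only), and FS was 11.6 times AFX (5.76 to 27.3). The edgeR adjusted p was 0.000114 for AFX against AF (-4.22, SE 0.43) and 8.46e-05 for FS against AFX (3.43, SE 0.40), and both calls held without each of the 12 samples in turn. Epiblasts had 10.14 to 16.09 CPM at E5.5, 4.333 to 8.769 at E6.0 and 13.62, 11.5 and 1.491 at E5.0, so embryo 4 of E5.0 was below all others.

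With Zfp951, AFX against AF gave 7 calls of 59, 4 higher and 3 lower in AFX, where 8.73% of all genes were called (4.3% higher, 4.42% lower). Zfp936 was higher in AFX (7.662, 4.933 and 6.647 CPM) than in AF (0.3862, 0.3649 and 2.335) by 2.60 (SE 0.59, edgeR adjusted p = 0.0136). Zfp932, Zfp970 and Zfp994 were higher by 0.78, 0.75 and 0.71, and Zfp992 had -1.02. Zfp987 had 2, 0 and 2 counts in AFX and 12, 21 and 26 in AF, a ratio of 16.9 (95% exact interval 6.27 to 64.1, counting error only, edgeR adjusted p = 0.02). The count fell to 3 without AF passage 14 or any 1 AFX passage and to 4 without AF passage 15 or 16. Zfp936 was not called without AF passage 14 (edgeR adjusted p = 0.0513). Its AF samples had 3, 4 and 24 counts. With each of the 12 samples left out in turn its log2 difference ran from 2.17 to 4.04. Zfp932 lost the call without FS line 1 passage 18 or any 1 AF or AFX sample (up to 0.165). Zfp992 lost it without FS line 1 passage 10, AF passage 14 or 15 or any 1 AFX passage (up to 0.151), and Zfp987 without AF passage 16 or any 1 AFX passage (up to 0.0763). Zfp970 lost it without passage 15 or 16 of either group (up to 0.12), and Zfp994 without passage 14 or 15 of either group (up to 0.0846). In a fit of AFX and AF alone Zfp970, Zfp994 and Zfp992 were not called (edgeR adjusted p of 0.086, 0.0757 and 0.0527), and without a filter Zfp970, Zfp994 and Zfp932 were not (0.0513, 0.0654 and 0.0573). In AFX against AF, 5 of 6 tested feeder markers were called lower in AFX (list median -3.51) and 1 higher, and 3 of 4 tested visceral endoderm markers were called lower (median -3.23). Their part in the result was not tested.

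FS against AFX gave 5 calls of 59, where 8.7% of all genes were called (3.78% higher, 4.92% lower). Zfp951, Zfp988 and Zfp948 were higher in FS, and Zfp936 and Zfp984 were lower. Zfp984 had 10.24, 13.76 and 13.81 CPM in AFX, all above the 6 FS samples (-1.06, SE 0.22, edgeR adjusted p = 0.00655), and was called without each of the 12 samples in turn. Zfp988 had 0, 2 and 2 counts in AFX and 99 in all in FS, a ratio of 12.8 (95% exact interval 4.86 to 48, counting error only, edgeR adjusted p = 0.049). Line 2 held 81 of these 99 counts. Line 1 had 13, 1 and 4, so the 2 groups overlapped, and with line 1 as the only FS samples Zfp988 was not called (log2 difference 2.18, edgeR adjusted p = 0.287). Zfp948 (0.59, SE 0.18, 0.049) and Zfp936 (-1.51, SE 0.45, 0.0495) were as near the threshold. Zfp988 kept its call only without FS line 1 passage 11 or 18 or AF passage 15 (edgeR adjusted p otherwise up to 0.158). Zfp948 kept it only without FS line 2 passage 12, AF passage 15 or AFX passage 15 (up to 0.244), and Zfp936 only without FS line 2 passage 13 or any 1 AF passage (up to 0.151). In a fit of FS and AFX alone Zfp988 and Zfp948 were not called (edgeR adjusted p of 0.0676 and 0.0551). With either FS line as the only one, Zfp948 and Zfp936 were not (up to 0.136). Without a filter Zfp948 was not called (0.0716), and with DESeq2 size factors Zfp936 was not (0.0502). The count was 2 without FS line 1 passage 10 or AFX passage 16. It was 3 without FS line 2 passage 12 or 16, AF passage 14, or AFX passage 14 or 15. Here 2 of 6 tested feeder markers and 1 of 4 tested visceral endoderm markers were called lower in FS, and their part was not tested.

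The FS lines differed from each other in 5 of 59 genes, all higher in line 2, where 3.85% of all genes were called and 2.65% were higher. These were Zfp986, Zfp982, Zfp990, Zfp958 and Zfp945, the first 3 on chromosome 4. Zfp982 (chr4:147492417-147513486, plus strand) stood at 43.5, 45.56 and 47.75 CPM in line 2 and at 21.95, 7.481 and 9.817 in line 1. The E5.0 epiblasts had 40.03, 30.2 and 43.55 CPM, so that the highest of them was level with the lowest line 2 sample. Passages 11 and 18 of line 1 lay within the range of AF (5.664 to 11.5), and AFX had 8.46 to 12.6. The log2 difference between lines was 1.77 (SE 0.33, edgeR adjusted p = 0.00725). Zfp990 had 21.35, 29.64 and 26.39 CPM in line 2 and 13, 5.03 and 7.695 in line 1 (1.55, SE 0.25, edgeR adjusted p = 0.00222). Zfp986 (2.45, SE 0.59, 0.0318), Zfp958 (0.91, SE 0.20, 0.0175) and Zfp945 (0.79, SE 0.18, 0.0217) were the other 3. Zfp986 rests on few counts, with 2, 1 and 6 in line 1 and 27, 15 and 20 in line 2. Its log2 difference ran from 2.17 to 3.23 with each of the 12 samples left out in turn. Zfp982 and Zfp990 were called without each of the 12 samples in turn. The count was 2 without line 1 passage 11, and 3 without line 1 passage 10 or line 2 passages 12, 13 or 16. Zfp986 lost the call without any of these 5 (edgeR adjusted p up to 0.133). Zfp958 lost it without line 1 passage 11 or 18 or line 2 passage 12 or 16 (up to 0.0961), and Zfp945 without line 1 passage 10 or 11 or line 2 passage 13 (up to 0.115). Of the 6 feeder markers tested, 1 was called lower in line 2 (list median 1.05), and of the 4 visceral endoderm markers tested 3 had a lower fitted value, without passing the threshold (median -2.94). Their part in the result was not tested. Each line is 1 derivation, so the differences are between these 2 lines.

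**Figure D5:**
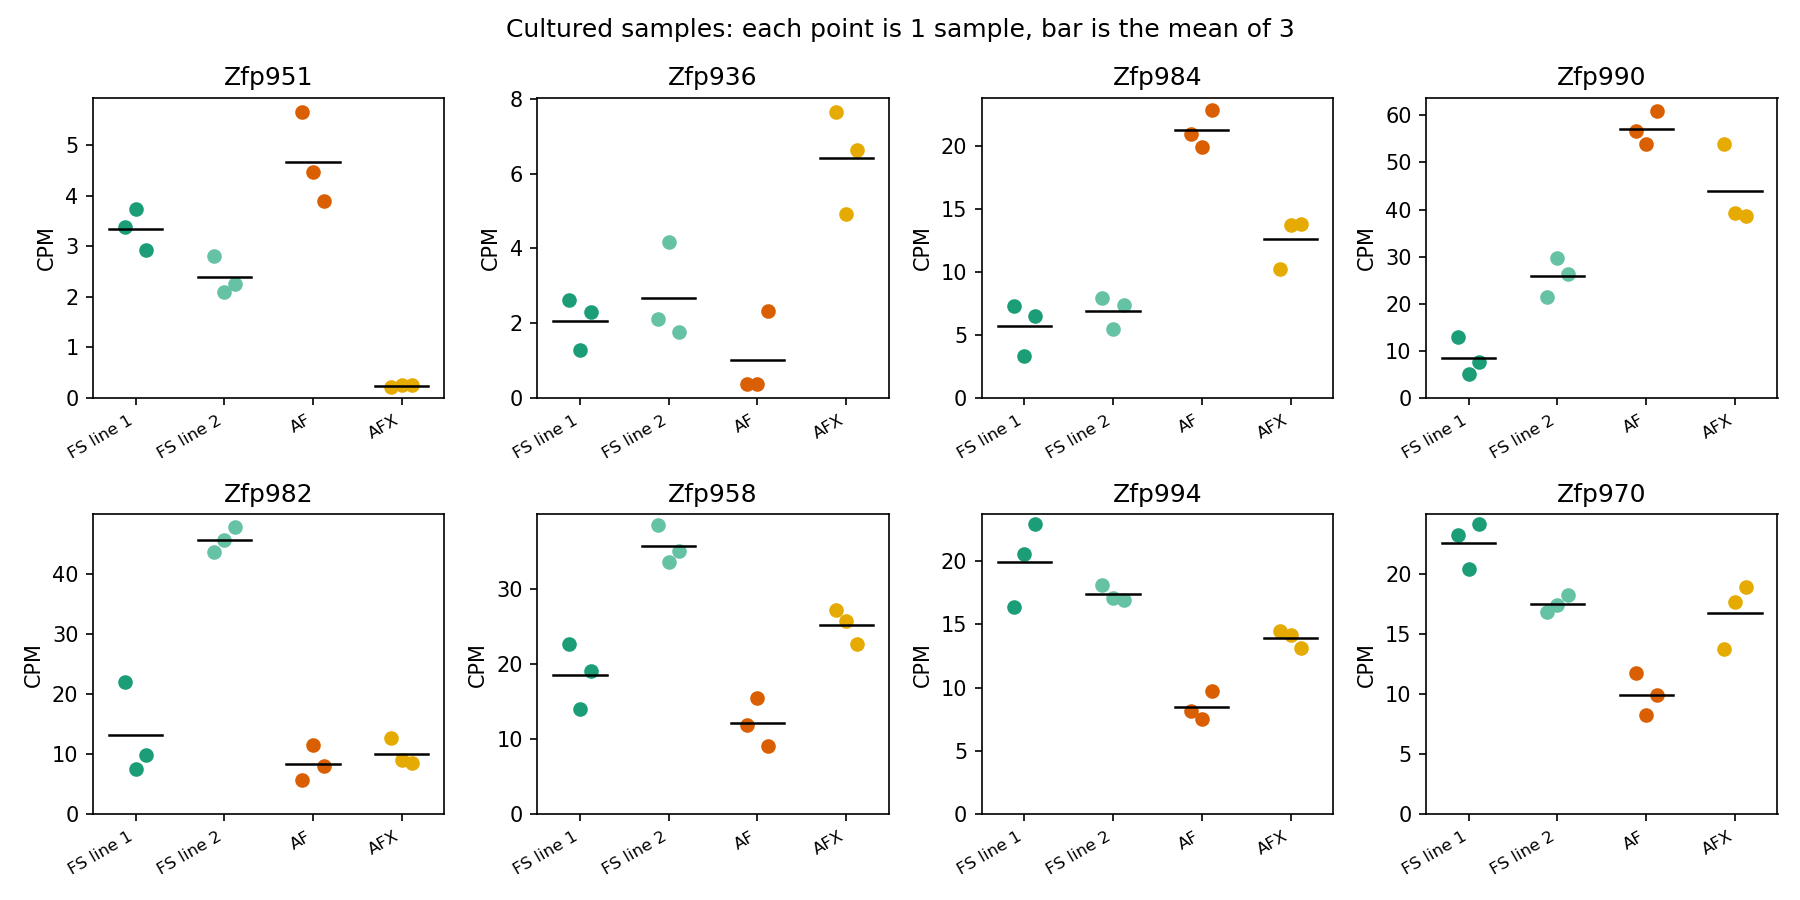
Level in CPM of 8 genes in the cultured samples, 1 point per sample and a bar at the mean of 3, for FS line 1, FS line 2, AF and AFX. Zfp951 is at most 0.2596 CPM in AFX, Zfp982 is at 43.5 CPM or more in FS line 2, and Zfp984 is highest in AF.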

How the data were processed

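The authors deposited 1 table of raw counts per gene, whole numbers with a column per sample. Per the submitters' processing notes, the tools were Trim Galore, TopHat2 2.1.0 and featureCounts 1.5.0 on mm10. The annotation, the handling of reads that fit several genes and the strand setting are not given in the sources used here. Samples were grouped by title, and no batch is labelled.

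The counts were fitted with edgeR 4.0.16 in R 4.3.3 (filterByExpr, TMM, robust quasi-likelihood, two-sided F-test, Benjamini-Hochberg over all genes of the fit, threshold 0.05), checked on simulated data. Cultured comparisons used 12 samples, stage comparisons 9, and cultured against epiblast all 21. The genes tested and the lists were chosen with earlier results of these data known. CPM use the full column totals, and 3 counts are 0.188 to 0.515 CPM. Named genes are Zfp985, the 5 genes with the highest mean CPM, up to 6 rising and 6 falling genes per comparison (5 and 5 for E6.0), and called KRAB machinery genes. Zfp982, Zfp992 and other genes with single samples apart were also described after their values were seen, as was the threshold for aligned promoters. Positions and 50-base words came from GENCODE M21, to which all 63 genes matched by Ensembl identifier. 1 annotated gene with such a symbol was not analysed here. Alternatives were DESeq2 1.42.0 size factors and its Wald test, no filter, the groups alone, each FS line alone, replicate blocks, each sample left out and no E6.0 epiblasts. The chromosome 4 counts under them, and the counts without Zfp985 or over genes that passed the filter in both kinds of sample, were added after seeing the data.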

Additional observations from a re-analysis of the deposited data

Results flagged for a closer look

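In the 6 FS samples, 57 of the 63 genes (those with a mean of at least 1 CPM) were examined for a sample far from the others, where chance alone marks about 1 in 20. The gap of 1 sample to its nearest neighbour was over Dixon's 95% critical value in 4 genes. Zfp946 was at 87.65 CPM in line 1 passage 18 and between 46.41 and 59.27 in the other 5. Zfp942 was at 40.51 CPM in the same sample and between 23.36 and 29.15 in the others, and Zfp977 was at 3.98 CPM there and between 1.161 and 2.092 elsewhere. Zfp940 was at 8.9 CPM in line 1 passage 11 and between 11.5 and 12.65 in the others.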

How the results depend on the processing

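Of the results for single genes named by rule (55 pairs of gene and comparison), 863 values under an alternative kept direction and call, 130 kept the direction but lost the call, and 0 turned direction. The pairs include the E6.0 comparisons, Zfp985 and genes that passed the filter only through 1 kind of sample. Their outcome was partly set in advance, so nothing is read from the tally. The number of genes called for AFX against AF was 4 in place of 7 without a filter. For FS against AFX it was 9 in place of 5 with the DESeq2 Wald test and 8 with FS line 2 alone. For E5.5 against E5.0 it was 9 in place of 5 without a filter and 11 with the DESeq2 Wald test. The cause was not tested. Leaving out each sample in turn gave counts of 6 to 18 for FS against AF, 2 to 7 for FS against AFX, 3 to 9 for AFX against AF, 2 to 5 between FS lines and 1 to 6 for E5.5 against E5.0. For E6.0 against E5.5 and against E5.0, and for cultured against epiblast samples, they were 9 to 13, 19 to 25 and 40 to 45. The chromosome 4 counts ranged from 7 to 10, 11 to 12 and 15 to 16 in the same order.

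Samples of AF and AFX share passage numbers, and epiblasts share embryo numbers, but samples with the same number did not deviate together (correlations of -0.137, -0.105 and 0.224 between AF and AFX). With a replicate block of passage number AFX against AF gave 4 calls, and with a replicate block of embryo number E5.5 against E5.0 gave 2, E6.0 against E5.5 14 and E6.0 against E5.0 17. With these blocks Zfp948, Zfp982 and Zfp978 (edgeR adjusted p of 0.276, 0.144 and 0.12) were not called for E5.5 against E5.0, and Zfp932, Zfp970, Zfp994 and Zfp992 (0.0939, 0.159, 0.151 and 0.111) were not for AFX against AF. The smallest library held 5827093 counts, and genes below about 1 CPM, such as Zfp951 in AFX, rest on a few counts.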
